A study of Mus musculus with 11 samples.

Results

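The 9 genes described here, Cybb, Cyba, Ncf1, Ncf4, Mpo, Prtn3, Ctsg, Lyz1 and Lyz2, encode the phagocyte NADPH oxidase and proteins stored in the granules of neutrophils and macrophages. They were taken by name from 22,367 protein-coding genes on the mm9 assembly, each with its gene body and 10 kb on each side. PU.1 occupancy was measured by ChIP-Seq, in which DNA recovered with an antibody against a bound protein is sequenced next to input DNA of the same chromatin. The first cell type was MEL, a murine erythroleukemia line of which 1 numbered clone was used and which stably carries Gata-1 fused to ER, grown in DMEM with FBS, L-glutamine and puromycin. The second was ES-EP, erythroid progenitors obtained in culture from ES cells and kept in StemPro34 medium with Epogen, hIGF-1, dexamethasone, murine SCF and mercaptoethanol. Both were immunoprecipitated with the same lot of the PU.1 antibody T-21, and neither group received a further agent according to the labels. The ChIP libraries of each cell type are labelled A1, A2, B1 and B2. The letters were read as the 2 independent chromatin preparations that the study's methods state, and the numbers as libraries of 1 preparation, a reading that the labels do not spell out and on which every call rests. MEL has 1 input library and ES-EP has 2. The question addressed by the comparison is whether genes that PU.1 serves in macrophages and neutrophils were occupied in erythroid cells.

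PU.1, a member of the Ets family, binds DNA at a purine-rich core, GGAA, and is required for the development of macrophages and neutrophils. The phagocyte oxidase makes superoxide at the membrane of a phagocytic vacuole. Its membrane core consists of the catalytic subunit encoded by Cybb and the partner subunit encoded by Cyba, and the cytosolic proteins encoded by Ncf1 and Ncf4 join it on activation. Mpo encodes myeloperoxidase, which turns hydrogen peroxide into hypochlorous acid, Prtn3 and Ctsg encode the granule serine proteases proteinase 3 and cathepsin G, and Lyz1 and Lyz2 encode lysozymes that cut the bacterial cell wall. Promoters of several of these genes are established targets of PU.1 in myeloid cells. ChIP-Seq reports occupancy of DNA and not expression, and in bulk chromatin fewer occupied cells cannot be told apart from less occupancy per cell.

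Reads were counted in windows of 500 bp after moving each 5′ end toward the middle of its fragment. A window was called in a preparation when its ChIP reads exceeded the number expected from the local input (one-sided Poisson test, Benjamini-Hochberg over 4,679,974 windows, adjusted p below 0.05), and called in a cell type when both preparations passed. The test takes the expected number as known, so its p-values cover neither error in the input nor spread between preparations. Distances given with a window run from its midpoint to the most upstream start site of a protein-coding transcript of the member, positive in the direction of transcription, and a window is named by its gene and that distance in bp. In MEL, 5 of the 9 genes had a called window (Cyba, Ncf1, Ncf4, Mpo and Lyz1), beside 25.6% of all protein-coding genes with the same flanks. In ES-EP, 3 of the 9 had one (Cyba, Ncf1 and Lyz1), beside 19.7%. The members were chosen with earlier results of these data known, so these counts are a description. They also changed when libraries, preparations or the test were altered, as given in the last section. Counted by window, 5 of 550 member windows with reads were called in MEL (0.909%) and 4 in ES-EP (0.727%), against 0.243% and 0.173% of the windows in all such gene regions. Most of these windows lay away from the start sites. Within 2 kb of a start site no member had a called window in MEL, beside 13.3% of all genes, and 1 member, Ncf1, had one in ES-EP, beside 9.12%. The count of 0 in MEL depends on the settings, since the start site window of Ncf4 was called there in 4 of 12 alternatives and that of Cyba in 2. The count of 1 in ES-EP depends on them too. The start site window of Cyba was called there in 3 of 12 alternatives, and no member had a called window from the first library of each preparation alone. Cybb, Prtn3, Ctsg and Lyz2 had no window called in both preparations of either cell type.

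The sequence around the highest point of ChIP reads is shown for the called windows that do not touch a UTR, because these are the sites on which the account of the members rests. Each is 201 bases of NCBIM37 (mm9) centred on the highest point. Capitals mark every occurrence of the words GAGGAAGT, GAGGAA and GGAA on either strand, the shorter words also being contained in the longer ones.
Cyba +2589 (chr8:124954219-124954419, plus strand): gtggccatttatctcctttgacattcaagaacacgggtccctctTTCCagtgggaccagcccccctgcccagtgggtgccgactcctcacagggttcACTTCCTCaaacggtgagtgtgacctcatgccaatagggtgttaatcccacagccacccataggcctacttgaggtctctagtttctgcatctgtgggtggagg
Ncf1 -3756 (chr5:134709137-134709337, plus strand): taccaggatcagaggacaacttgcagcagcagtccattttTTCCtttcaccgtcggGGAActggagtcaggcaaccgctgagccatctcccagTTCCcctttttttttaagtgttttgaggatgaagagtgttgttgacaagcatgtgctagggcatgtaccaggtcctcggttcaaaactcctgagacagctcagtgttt
Lyz1 -8827 (chr10:116738781-116738981, plus strand): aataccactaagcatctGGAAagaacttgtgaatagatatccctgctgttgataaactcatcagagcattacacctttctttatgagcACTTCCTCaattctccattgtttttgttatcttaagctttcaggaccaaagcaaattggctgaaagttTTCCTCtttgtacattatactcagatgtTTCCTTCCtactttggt
Mpo +15168 (chr11:87622191-87622391, plus strand): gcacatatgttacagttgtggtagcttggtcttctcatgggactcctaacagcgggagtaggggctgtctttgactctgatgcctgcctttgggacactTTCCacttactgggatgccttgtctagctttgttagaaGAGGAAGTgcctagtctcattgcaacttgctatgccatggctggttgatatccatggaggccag
Ncf4 +23020 (chr15:78098400-78098600, plus strand): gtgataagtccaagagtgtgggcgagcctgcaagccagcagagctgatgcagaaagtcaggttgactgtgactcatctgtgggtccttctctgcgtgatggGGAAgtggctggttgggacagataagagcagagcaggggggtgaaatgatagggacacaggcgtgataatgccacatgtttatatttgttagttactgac

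Of the 6 windows near members that were called in a cell type, 3 held GAGGAAGT in these 201 bases, at Cyba +2589, Lyz1 -8827 and Mpo +15168. The nearest GAGGAA was centred 2 bp from the highest point at Cyba, 7 bp at Lyz1 and 40 bp at Mpo. The windows at Ncf1 -3756 and Ncf4 +23020 held GGAA only, 3 times and 1 time, and so did the window at the Ncf1 start site, 1 time. For comparison, GAGGAAGT was present in 30.1% of all windows called in MEL and 33.5% of those called in ES-EP, cut to the same length around their highest point, and in 1.18% of sequences of that length at 93,609 windows with reads. GGAA was present in 96.4%, 99.3% and 87.4% of the same 3 sets, so that its presence sets no window apart.

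The promoters, taken as the 150 bases before the most upstream start site and printed on the strand of the gene, also differed in these words. The promoters shown are that of Ncf4, which was called in 1 MEL preparation, and those of Cybb, Mpo and Prtn3, which held a longer word and were called in no preparation.
Ncf4 promoter (chr15:78075081-78075230, plus strand): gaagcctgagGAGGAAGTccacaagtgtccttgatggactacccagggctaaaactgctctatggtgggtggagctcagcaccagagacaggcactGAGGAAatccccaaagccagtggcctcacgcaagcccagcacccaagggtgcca
Cybb promoter (chrX:9064898-9065047, minus strand): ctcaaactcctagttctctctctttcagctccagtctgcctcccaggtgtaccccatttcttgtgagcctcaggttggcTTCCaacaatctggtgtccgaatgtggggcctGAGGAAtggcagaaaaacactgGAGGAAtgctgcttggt
Mpo promoter (chr11:87606933-87607082, plus strand): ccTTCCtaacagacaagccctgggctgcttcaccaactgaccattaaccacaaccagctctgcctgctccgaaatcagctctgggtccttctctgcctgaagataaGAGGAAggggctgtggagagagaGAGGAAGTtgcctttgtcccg
Prtn3 promoter (chr10:79342209-79342358, plus strand): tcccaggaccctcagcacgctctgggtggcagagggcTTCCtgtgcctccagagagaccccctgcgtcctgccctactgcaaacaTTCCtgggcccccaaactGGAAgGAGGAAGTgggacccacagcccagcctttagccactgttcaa

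GAGGAAGT was found in the promoters of Ncf4, Mpo and Prtn3, beside 1.58% of 22,359 promoters of this length, and GAGGAA also in that of Cybb, beside 14.3%. The promoters of Cyba, Ncf1, Ctsg, Lyz1 and Lyz2 held GGAA only, which 80.1% of promoters contain. A match of letters is a description and not a site.

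**Figure D1:**
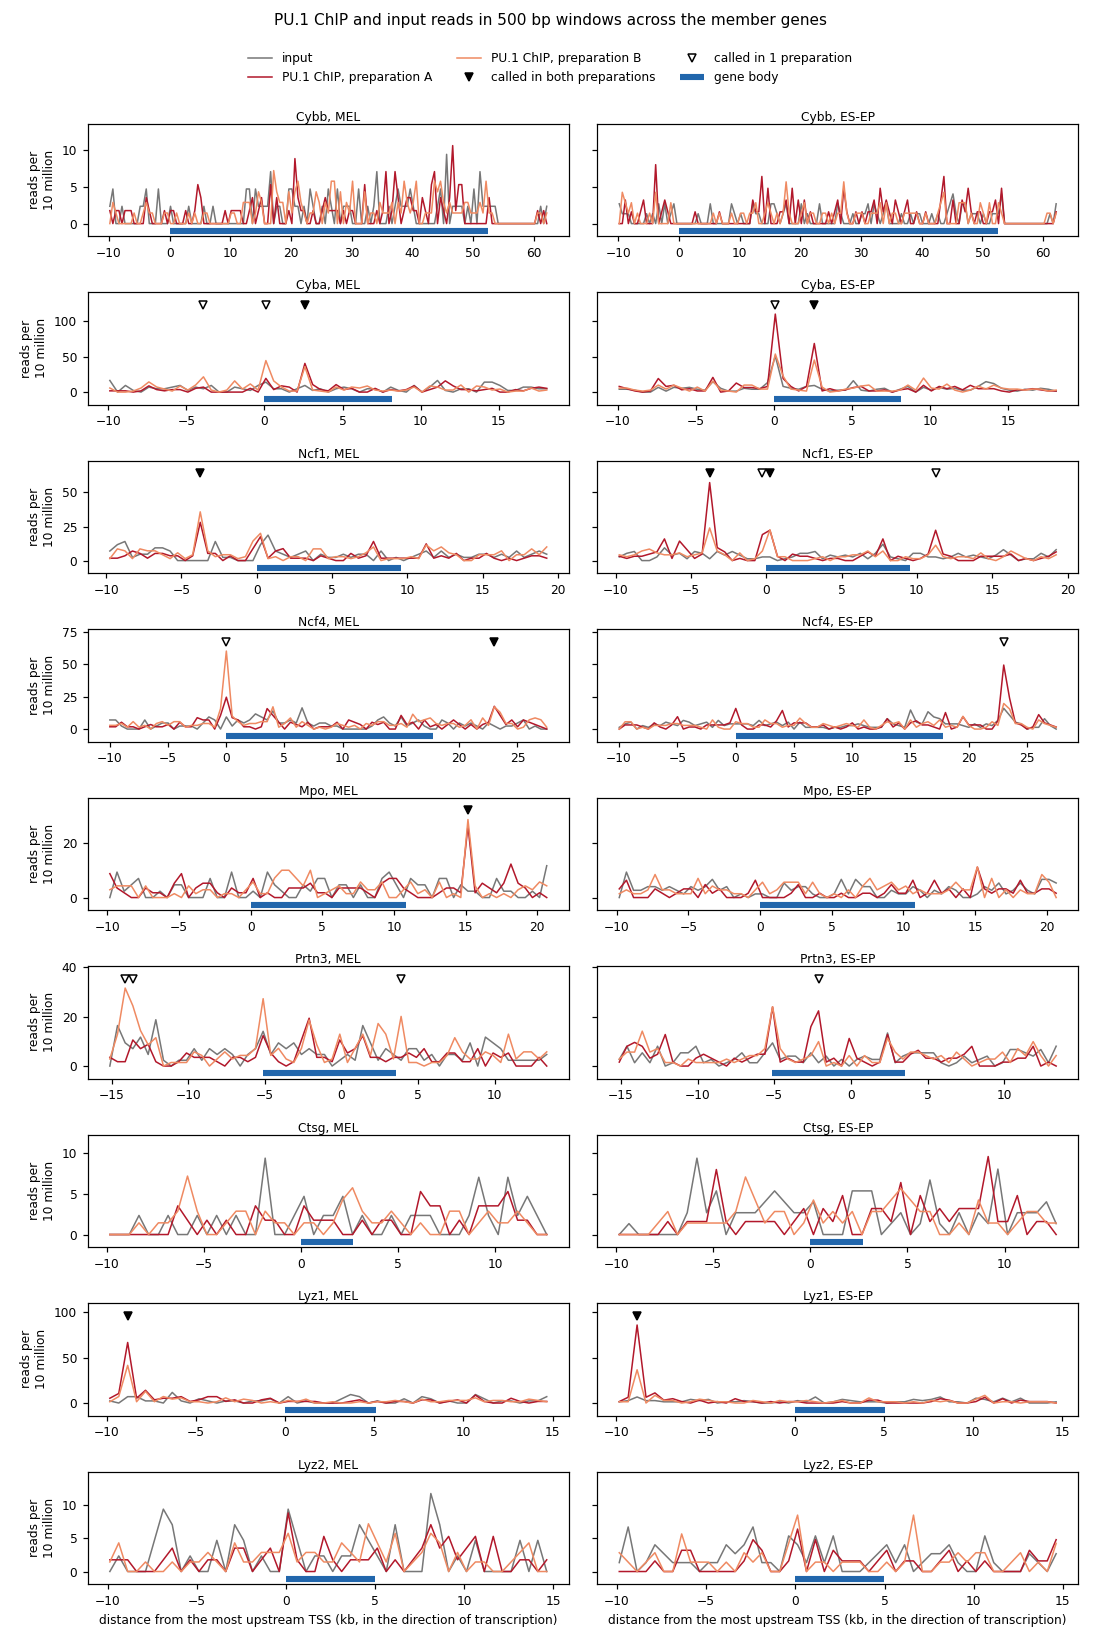
Reads in each 500 bp window, scaled to a common number of placed reads per preparation (vertical axis, one scale per gene), against the distance from the most upstream start site in kb, for PU.1 ChIP preparations A and B and for input, with MEL on the left and ES-EP on the right. Filled triangles mark windows called in both preparations, open triangles those called in 1, and the blue bar the gene body. Cyba, Ncf1 and Lyz1 have a filled triangle in both cell types, Mpo and Ncf4 in MEL, and Cybb, Prtn3, Ctsg and Lyz2 in neither.

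The depth behind these windows is modest. Placed reads numbered 5,697,937 for preparation A and 6,987,141 for preparation B of MEL, and 6,284,725 and 7,095,855 for those of ES-EP, which is 1.22 to 1.52 reads in a tested window on average, and the inputs have 4,278,560 (MEL) and 7,488,885 (ES-EP). Even where the input was lowest, 8 reads in a window were needed for a call, or 9 in ES-EP B. The preparations of a cell type were not equal: 10,111 windows were called in MEL A and 22,282 in MEL B, 16,989 in ES-EP A and 6,232 in ES-EP B. As a reference locus, the window at -11796 bp of Sfpi1, the gene of PU.1, was called in all of them, with 12.8-fold and 37.1-fold the expected reads in the MEL preparations and 24.2-fold and 17.2-fold in those of ES-EP. Expression was not analysed here, so that the labelled cell types were not checked by their transcripts.

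Among the oxidase genes, Cyba had an intronic window called in both cell types. Cyba (ENSMUSG00000006519) lies at chr8:124948672-124956840 on the minus strand, and the called window Cyba +2589 (chr8:124954001-124954500) lies in an intron. In MEL it held 11, 12, 8 and 17 reads in libraries A1, A2, B1 and B2 with 4 input reads, which is 4.32 and 3.83 times the expected reads in A and B (adjusted p = 1.49e-05 and 1.40e-05, Poisson test). In ES-EP it held 15, 28, 11 and 21 reads with 7 input reads, or 6.71 and 4.42 times (adjusted p = 2.38e-18 and 2.61e-08). All 8 libraries had more reads in this window relative to depth than any input library. Over both preparations the window had 8.50 times the reads of the input in the surrounding 21 windows in MEL (95% interval 5.47 to 13.3) and 7.67 times in ES-EP (5.65 to 10.3), where intervals here and below are exact and cover counting error only.

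The window at the start site of Cyba (Cyba +89, chr8:124956501-124957000) was called in 1 preparation of each cell type. In MEL it held 3, 8, 8 and 23 reads with 6 input reads, and only preparation B passed, at 3.16 times the expected reads against 1.38 times in A. In ES-EP it held 20, 49, 11 and 27 reads, and only A passed, at 2.16 times against 1.06 times in B. The ES-EP input had 38 reads in this same window, so that a call there needed 55 reads in A and 62 in B. Input itself was therefore high at the promoter of Cyba in ES-EP, and the ES-EP B libraries did not stand apart from it. A further window, Cyba -3911 in an intron of the neighbouring gene Mvd, passed in MEL B alone, with 1, 3, 8 and 7 reads.

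Ncf1 (ENSMUSG00000015950, chr5:134695923-134705495, minus strand) encodes the cytosolic protein that brings the other cytosolic subunits to the membrane core. Its called window Ncf1 -3756 (chr5:134709001-134709500) is intergenic and upstream of the gene. In MEL it held 7, 9, 6 and 19 reads and the input held 0, which allows up to 3 reads, and the folds over the expected reads were 5.48 and 6.99 in A and B (adjusted p = 9.00e-05 and 1.30e-10). In ES-EP it held 9, 27, 6 and 11 reads with 1 input read, at 13.5 and 5.64 times (adjusted p = 9.17e-25 and 3.68e-05). Every ChIP library was above every input library. Relative to depth, ES-EP A was the highest preparation and ES-EP B the lowest, with both MEL preparations between them.

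At the start site of Ncf1 the cell types were called differently. The window Ncf1 +244 (chr5:134705001-134705500) was called in ES-EP, with 5, 9, 6 and 10 reads and 2 input reads, at 6.15 and 6.22 times the expected reads (adjusted p = 7.29e-05 and 2.55e-05). In MEL it held a like number of reads, 5, 5, 1 and 13, but 5 input reads, and the folds were 1.5 and 1.71 with both adjusted p = 1.00. Most of the MEL reads came from a single library, B2. The reads of the cell types were not distinguishable in the direct comparison (log2 difference MEL minus ES-EP -0.24, 95% interval -1.44 to 0.95, adjusted p = 0.884, limma), so the difference in calls is not a shown difference in occupancy. The windows called in ES-EP A alone were Ncf1 -256, which adjoins Ncf1 +244 and shares its highest point at chr5:134705483, and Ncf1 +11244 in an intron of Gtf2ird2.

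Ncf4 (ENSMUSG00000071715, chr15:78075231-78093010, plus strand) encodes a further cytosolic subunit, which binds a phosphoinositide of the vacuole membrane. Its start site window Ncf4 +20 (chr15:78075001-78075500) had the smallest p of the member windows in the direct comparison of the cell types. In MEL it held 5, 9, 13 and 29 reads with 4 input reads, and only preparation B passed, at 6.43 times the expected reads (adjusted p = 3.31e-17) against 2.63 times in A (adjusted p = 0.372). In ES-EP it held 5, 5, 0 and 4 reads with 3 input reads, at 3.97 and 1.41 times (adjusted p = 0.0760 and 1.00). All 4 MEL libraries lay above the highest ES-EP library relative to depth, and the MEL B libraries stood clear of all others. These libraries come from 2 preparations per cell type, and the direct comparison did not pass (adjusted p = 0.227, limma). A call in MEL A would have needed 17 reads and the preparation had 14.

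The window of Ncf4 that was called in both MEL preparations, Ncf4 +23020 (chr15:78098001-78098500), is intergenic and lies 5,241 bp beyond the end of the gene. It held 6, 4, 3 and 9 reads in MEL with 1 input read, at 5.90 and 5.77 times the expected reads (adjusted p = 0.00746 and 6.86e-04). In ES-EP it held more reads, 9, 22, 6 and 8, but the input held 12, and only A passed, at 3.08 times against 1.23 times in B. Its adjusted p in MEL A was the largest among the called member windows, and with 1 read per position and strand it was no longer called in MEL. Its highest point lay at the edge of the window.

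Cybb (ENSMUSG00000015340, chrX:9012378-9064897, minus strand), the gene of the catalytic subunit, had no window called in any preparation. At its start site (chrX:9064501-9065000) MEL had 1, 0, 0 and 0 reads and ES-EP had 0 in all 4 libraries, which allows up to 3 reads. A call needed 8 reads in A and 9 in B in either cell type. The window with the most ChIP reads relative to depth held 5 and 3 reads in MEL A and B and lay in a coding exon, and that of ES-EP held 5 and 3 reads and was intergenic. Of its 145 windows 22 had no read in any library. Input density was also low here, at 0.671 (MEL) and 0.353 (ES-EP) of the genome mean per window, so that weak occupancy was not detectable at this depth. Depth-scaled input was 1.90 times higher in MEL than in ES-EP over the Cybb region (1.39 to 2.60), and its part in these counts was not tested.

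**Figure D2:**
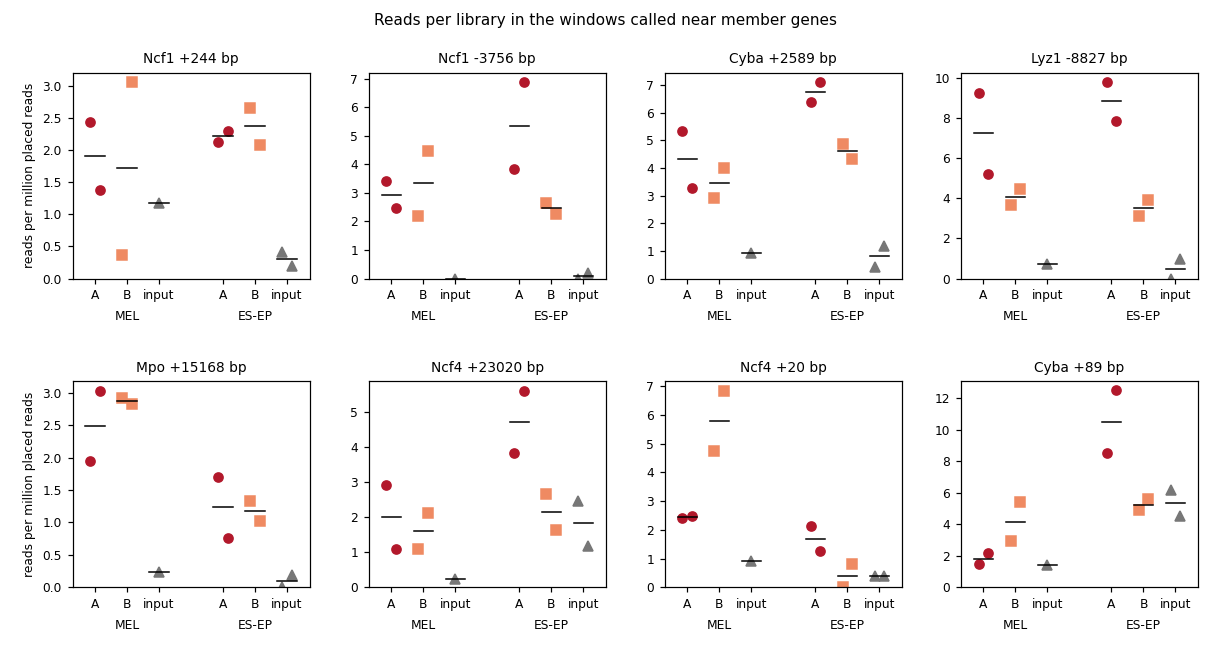
RPM, the reads scaled to the placed reads of each library (vertical axis, from 0, one scale per panel) in 8 windows near members, for each library of PU.1 ChIP preparations A and B and for each input library, in MEL and ES-EP. Points are libraries and bars are means. At Cyba +2589, Ncf1 -3756, Lyz1 -8827 and Mpo +15168 every ChIP library lies above the input libraries of its cell type, while at Cyba +89 the ES-EP B libraries lie among the input libraries.

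Among the granule genes, a window upstream of Lyz1 was called in both cell types. Lyz1 (ENSMUSG00000069515, chr10:116724852-116729924) and Lyz2 (ENSMUSG00000069516, chr10:116714390-116719377) are neighbouring copies on the minus strand, known for expression in Paneth cells and in macrophages. The window Lyz1 -8827 (chr10:116738501-116739000) is intergenic. It held 19, 19, 10 and 19 reads in MEL with 3 input reads, at 9.51 and 5.92 times the expected reads (adjusted p = 1.52e-20 and 9.44e-11). In ES-EP it held 23, 31, 7 and 19 reads with 5 input reads, at 12.9 and 5.49 times (adjusted p = 9.10e-37 and 2.27e-08). Against the input of the surrounding 21 windows the ratio was 21.6 in MEL (13.2 to 36.7) and 26.9 in ES-EP (17.8 to 41.2), and preparation A was above B in both cell types. This was the one member window still called in MEL from the first library of each preparation alone.

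The start site windows of both lysozyme genes were called in no preparation. At Lyz1 (chr10:116729501-116730000) the reads were 1, 0, 2 and 0 in MEL with 3 input reads and 0, 1, 0 and 1 in ES-EP with 2. At Lyz2 (chr10:116719001-116719500) they were 1, 4, 2 and 2 in MEL with 4 input reads and 2, 2, 1 and 5 in ES-EP with 3, and this was the highest window of the Lyz2 region in both cell types. The smallest number of reads that would have been called ranged from 9 to 18 over these windows and preparations. Against the input of the surrounding 21 windows the Lyz1 window was at 0.924 in MEL (0.178 to 3.06) and 0.904 in ES-EP (0.104 to 3.61). The Lyz2 window was at 2.66 in MEL (1.09 to 5.92) and 2.94 in ES-EP (1.31 to 5.98), on few reads. The copies share sequence: 31.7% of the 27-base words of the Lyz1 gene body occur in that of Lyz2, and reads from such words have no unique alignment and are missing from the counts. The regions of both genes overlap in 29 windows, while Lyz1 -8827 lies outside the flank of Lyz2.

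Mpo (ENSMUSG00000009350, chr11:87607083-87617915, plus strand) had 1 called window, in MEL. Mpo +15168 (chr11:87622001-87622500) lies 4,336 bp beyond the end of Mpo in an intron of Lpo, the gene of lactoperoxidase, a related secreted enzyme. It held 4, 11, 8 and 12 reads in MEL with 1 input read, at 8.85 and 9.62 times the expected reads (adjusted p = 6.54e-07 and 1.17e-10). In ES-EP it held 4, 3, 3 and 5 reads with 1 input read, at 3.98 and 4.03 times, which did not pass (adjusted p = 0.405 and 0.380). Relative to depth all 4 MEL libraries lay above all 4 ES-EP libraries, and the ES-EP libraries were in turn above their inputs. The call in MEL favours such an order, and the libraries come from 2 preparations per cell type. In the direct comparison the difference did not pass (adjusted p = 0.750, limma). At the start site of Mpo (chr11:87607001-87607500) MEL had 2 reads in each library with 1 input read and ES-EP had 0, 0, 1 and 3, and a call needed 8 to 10 reads.

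Prtn3 (ENSMUSG00000057729, chr10:79337221-79345919, plus strand) and Ctsg (ENSMUSG00000040314, chr14:56718718-56721411, minus strand) had no window called in both preparations. The gene body of Prtn3 begins with a transcript annotated as not coding, and the start site used here, at 79342359, lies inside it. At this start site (chr10:79342001-79342500) the reads were 4, 2, 1 and 8 in MEL with 1 input read and 0, 7, 1 and 2 in ES-EP with 0. The windows of the Prtn3 region that passed in 1 preparation numbered 4, of which Prtn3 -14108, -13608 and +3892 passed in MEL B and Prtn3 -2108 in ES-EP A. At Prtn3 -14108, in BC005764, MEL B had 22 reads and MEL A had 1. At Prtn3 -2108, in an intron of the longer transcript, ES-EP A had 14 reads and B had 7, and MEL A and B had 11 and 13. The highest window of the region in both cell types (chr10:79337001-79337500) holds both the start site of BC005764 and the first base of the Prtn3 gene body, where MEL A and B had 7 and 19 reads with 6 input reads and the ES-EP preparations had 15 and 17 with 7, and it passed in none of them. Depth-scaled input over the Prtn3 region was 1.54 times higher in MEL than in ES-EP (1.22 to 1.95). At the start site of Ctsg (chr14:56721001-56721500) MEL had 1, 1, 1 and 0 reads with 2 input reads and ES-EP had 0, 0, 0 and 3 with 3, and the windows of the Ctsg region that were highest in each cell type were different ones. That of MEL held 1 and 5 reads in A and B, and that of ES-EP held 4 in each preparation.

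Calls in a single preparation fell on 1 side in each cell type. Of 11 member windows called in at least 1 MEL preparation (2.00%, beside 0.86% of the windows of all gene regions), 6 were called in B alone and 0 in A alone. Of 9 in ES-EP (1.64%, beside 0.584%), 5 were called in A alone and 0 in B alone. MEL B and ES-EP A were also the preparations with more windows called over the whole genome. Counted in this way, 6 of the 9 members had a window in MEL, Prtn3 being the addition, beside 58.5% of all protein-coding genes, and 5 of the 9 had one in ES-EP, where Ncf4 and Prtn3 were added, beside 45.5%. These shares are near those of all genes.

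Over whole regions most ratios of ChIP to input had intervals that span 1. The ratio of depth-scaled ChIP to input reads over the gene body and flanks ranged from 0.729 to 1.5 in MEL A (median 0.869, beside 0.946 for all genes), from 0.832 to 1.35 in MEL B (median 1.17, beside 1.01), from 0.626 to 1.63 in ES-EP A (median 1.17, beside 1.03) and from 0.771 to 1.21 in ES-EP B (median 1.09, beside 1.05). Lyz1 had the highest ratio in MEL A, 1.5 (1.09 to 2.09), and in ES-EP A, 1.63 (1.22 to 2.20), and its neighbour Lyz2 the lowest in ES-EP A, 0.626 (0.418 to 0.926). The called window Lyz1 -8827 alone held 38 of the 118 reads of the Lyz1 region in MEL A and 54 of the 111 in ES-EP A. For Cyba the ratio was 0.869 and 1.18 in the MEL preparations and 1.41 (1.19 to 1.68) and 1.21 (1.01 to 1.44) in those of ES-EP. The interval also lay above 1 for Ncf1 in ES-EP A (1.14 to 1.75) and Ncf4 in MEL B (1.09 to 1.67), and below it for Mpo in ES-EP A (0.548 to 0.981). For Prtn3 it lay below 1 in MEL A (0.571 to 0.932) and above it in MEL B (1.01 to 1.53). The ratio was below 1 in all 4 preparations for Lyz2, from 0.626 to 0.832, and for Ctsg, from 0.819 to 0.946. Apart from Lyz2 in ES-EP A, the intervals of these genes span 1.

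**Figure D3:**
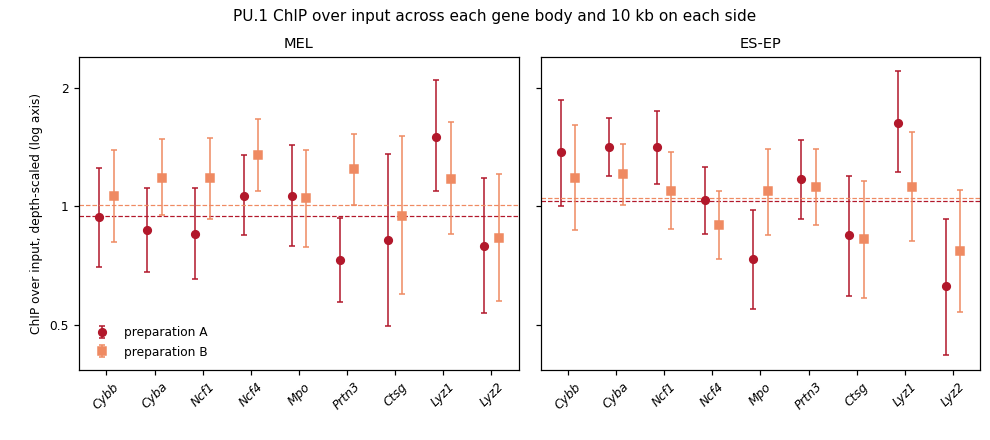
Ratio of depth-scaled PU.1 ChIP to input reads over each gene body and 10 kb on each side (vertical axis, log scale) for the 9 genes, with MEL on the left and ES-EP on the right. Points are preparations A and B, bars are exact 95% intervals for counting error, and dashed lines are the medians over all protein-coding genes in each preparation. Lyz1 is the highest in ES-EP A at 1.63, and most intervals cover 1.

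The direct comparison of the cell types used limma on the 4 preparations, over 65,012 windows with at least 20 ChIP reads, of which 157 differed (0.241%, adjusted p below 0.05, 104 higher in MEL and 53 lower). Of 34 member windows with that many reads, 0 differed, and the smallest adjusted p was 0.227. At an unadjusted p below 0.05 there were 3 of the 34, beside 4,202 of all 65,012 windows, which is a like share. By limma-trend 0 differed, with 2 of the 34 at an unadjusted p below 0.05 beside 8,731 of 65,012. With median-ratio size factors 1 differed, Ncf4 +20 (log2 difference 2.03, adjusted p = 0.00938, limma), and over the other alternatives its adjusted p ranged from 0.0516 to 0.956. The 3 windows were Ncf4 +20 (log2 difference MEL minus ES-EP 1.93, 95% interval 0.72 to 3.14, adjusted p = 0.227), Mpo +15168 (1.24, 0.05 to 2.43, adjusted p = 0.750) and Cyba +89 (-1.38, -2.66 to -0.10, adjusted p = 0.725). This fit used ChIP reads without input. At Cyba +89 the input was 1.4 RPM in MEL and 6.15 and 4.55 RPM in the ES-EP libraries. At Ncf4 +20 it was 0.935 RPM in MEL beside 0.41 and 0.396, and at Mpo +15168 0.234 beside 0.0 and 0.198. Input thus lay on the side of the ChIP difference in each, and these differences are not shown to be differences in occupancy. For the windows called in both cell types the differences were -0.09 at Lyz1 -8827 (-1.39 to 1.20), -0.23 at Ncf1 -3756 (-1.47 to 1.01) and -0.54 at Cyba +2589 (-1.81 to 0.74). The spread in this fit is shared among all tested windows, so an interval reflects little of a window's own spread between preparations. With 2 preparations per cell type these intervals leave room for differences of more than 2-fold in either direction, or, at Cyba +2589, of more than 2-fold lower in MEL, and they do not show that the cell types were alike.

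**Figure D4:**
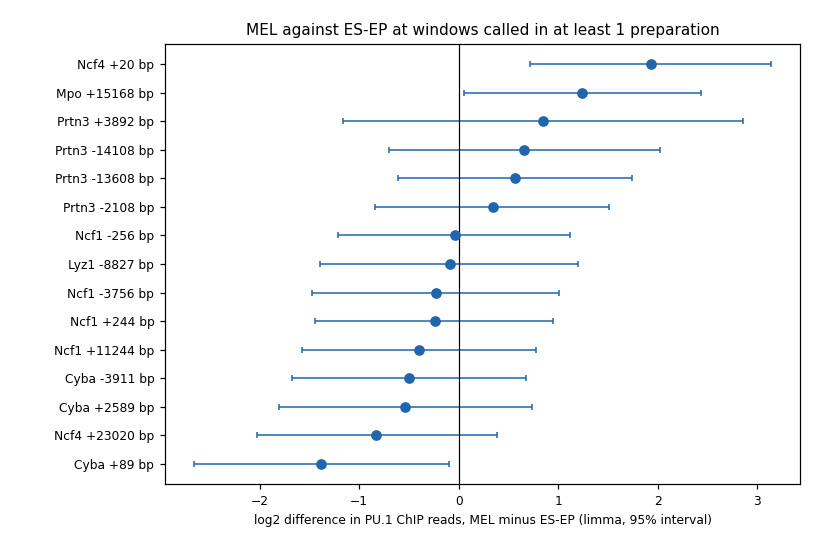
Log2 difference in PU.1 ChIP reads, MEL minus ES-EP (horizontal axis), for the 15 member windows called in at least 1 preparation, with 95% intervals from limma over 2 preparations of each cell type. The fit used ChIP reads without input, and the spread behind the intervals is shared among all tested windows. Ncf4 +20 lies highest at 1.93 and Cyba +89 lowest at -1.38, and no window passed after adjustment, while Ncf4 +20 passed with median-ratio size factors.

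Other genes of the same pathways were counted by the same rule. Of 4 further oxidase genes (Rac1, Rac2, Nox1 and Nox4), 2 had a called window in MEL (Rac1 and Nox1) and 2 in ES-EP (Rac1 and Rac2). For this and the following lists the shares of all protein-coding genes are again 25.6% in MEL and 19.7% in ES-EP. Within 2 kb of a start site, where the shares of all genes are 13.3% and 9.12%, none had one in MEL, and Rac1 and Rac2 had one in ES-EP. Rac2, the gene of a GTPase that the oxidase needs in neutrophils, had 25, 33, 12 and 28 reads in ES-EP with 7 input reads (9.87 and 6.03 times the expected reads). In MEL the same window of Rac2 had 7, 14, 34 and 65 reads with 7 input reads and passed in B alone. Rac1, a widely expressed relative, had 39, 87, 20 and 41 reads in ES-EP in its window at 110 bp, where the input had 34. These were 4.42 and 1.89 times the expected reads, and ES-EP B passed with 61 reads where 57 were needed. In MEL this window of Rac1 passed in B alone, and the Rac1 window called in both MEL preparations lay farther from a start site.

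Of 16 further granule genes (Elane, Ltf, Camp, Lcn2, Mmp8, Mmp9, Ngp, Chi3l3, S100a8, S100a9, Epx, Prg2, Lpo, Ctsc, Cst7 and Cebpe), 2 had a called window in MEL and 2 in ES-EP. The MEL genes were Ctsc and Lpo, the latter through the window shared with Mpo, and the ES-EP genes were Ctsc and Camp. Only Ctsc, which encodes the protease that activates granule serine proteases, was called within 2 kb of a start site, in both cell types. Its window at -844 bp held 7, 11, 6 and 15 reads in MEL and 19, 13, 6 and 16 in ES-EP, with 3 and 2 input reads (4.51 and 4.29 times, and 16.1 and 9.82 times the expected reads). For comparison, 5 of 8 Fc and innate receptor genes had a called window in MEL (Fcgr1, Fcgr2b, Fcgr3, Fcer1g and Cd14) and 1 of 8 in ES-EP (Fcgr2b). Of 7 integrin genes, 3 had one in MEL (Itgam, Itgb2 and Itga2b) and 2 in ES-EP (Itga2b and Itga4). Of Sfpi1, Fli1 and Gfi1b, loci listed for reference, 3 had one in MEL and 2 in ES-EP. The locus missed was Fli1, which had no window called in either ES-EP preparation. The study reports PU.1 at Fli1 in both cell types, from ChIP-Seq and from ChIP followed by PCR. A window without a call here is therefore not shown to be unoccupied. These lists are small and no test was made between them.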

How the data were processed

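PU.1 ChIP and input DNA were sequenced in 11 libraries of MEL and ES-EP. The authors sequenced on an Illumina GAII and aligned with ELAND to mm9 (version not given in the sources used here). The deposited files carry no measured value and list 1 uniquely aligned read per line with its position, strand and sequence, so every count was made from these lines. Starts were checked as counted from 1: of 2,000 reads per library, 99.95 to 100% matched the NCBIM37 genome with at most 2 mismatches. Reads on unplaced sequence and the mitochondrial genome were left out. Repeated positions make up 1.59 to 9.00% of a library and were kept.

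The libraries of a preparation were summed, and the preparation was the replicate (n = 2). The labels give the letter and number, the study's methods state duplicate independent chromatin preparations, and neither ties the letters to them. The 5′ ends were shifted by 70 bp (MEL) or 65 bp (ES-EP) and counted in 500 bp windows. The expected reads of a window were set to whichever was highest: the input of that window scaled to the same depth, the input mean over 11 or over 21 windows around it, or the genome mean. Windows with at least 1 read in any library were tested. The cell types were compared with limma 3.58.1 (voom, two-sided, total reads as library size, R 4.3.3). Tools that model deposited counts were not used. Genes came from GENCODE vM1 on NCBIM37, and a window belonged to a gene by its midpoint. The highest point was found from all ChIP reads with a smoothing of 150 bp, within the window and 250 bp on each side. Python 3.11.15, numpy 2.4.6 and scipy 1.17.1 were used, and calls and fit were run on simulated data. For the calls, these reads were drawn from the expected reads that the test itself uses, without input error or spread between preparations. They therefore do not show how the calls behave on real preparations.

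All 9 members are reported, each with its start site window, highest window and called windows, and further oxidase and granule genes are named where a window within 2 kb of a start site was called. Receptor and integrin genes and the other called genes behind a count of 5 or fewer were named after their values were seen. A further gene, not named in the text, is not reported here. The members and lists were chosen with earlier results of these data known. Alternatives were read filters, window grids and lengths, shift, input models, thresholds, normalization and left-out preparations.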

Additional observations from a re-analysis of the deposited data

Results flagged for a closer look

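In the 15 windows called near members, the 4 ChIP libraries of each cell type were examined for a library far from the others by Dixon's test, 30 groups in all, of which 2 were picked out. The nominal rate of about 1 group in 20 does not hold here. The windows were chosen for a call in at least 1 preparation, which favours a library far from the others, and they hold few reads. Both were at Prtn3 -13608, in BC005764. In MEL, library B2 had 3.29 RPM (reads scaled to the placed reads of the library), above the other 3 libraries. In ES-EP, library A1 had 0.0 RPM, below the other 3. The window was called in MEL B alone, and no call of both preparations rests on it.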

How the results depend on the processing

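The 5 members called in MEL stayed between 4 and 6 in 11 of 12 alternatives, and the 3 called in ES-EP stayed at 3 in 8 of 12. From the first library of each preparation alone, MEL had 1 member and 1 window and ES-EP had 0 and 0, with 0.0459 and 0.0297% of all windows called. With the preparations summed, MEL had 13 windows and ES-EP had 12 windows in 6 members, while the share of all tested windows that were called went from 0.157 to 0.587% and from 0.11 to 0.42%. With the exact binomial test against input in 10 kb, ES-EP had 7 windows in 5 members, with 0.358% of all windows called. Leaving out a preparation gave 5 to 11 windows and 5 to 6 members in MEL, the higher values without A (0.476% of all windows), and 4 to 9 windows and 3 to 5 members in ES-EP, the higher values without B (0.363%). MEL lost Ncf4 +23020 with 1 read per position and strand (5.54 times the expected reads, from 5.83) and without the shift (4.38). ES-EP lost Ncf1 -3756 with windows that start 250 bp later (4.93, from 9.32) and Ncf1 +244 without the shift (4.7, from 6.19), where the adjoining Ncf1 -256, with the same highest point, was called instead (5.34, from 3.63). The start site window of Ncf4 was called in MEL without the shift, by the binomial test, with the preparations summed and without A, and that of Cyba in the last 2 of these. In ES-EP the start site window of Cyba was called by the binomial test, with the preparations summed and without B. Lyz1 -8827 was called in all 12 alternatives in MEL and in 11 in ES-EP. The causes were not tested.

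The 157 windows that differed between cell types became 386 with at least 10 reads, 17 with at least 50, 1,435 among called windows, 1,743 with limma-trend, 1,369 with median-ratio size factors, 1,365 with 8 libraries as samples, 40 with the interaction with input, and 0 to 1 when a preparation was left out, which leaves 1 sample in a group that is assumed to vary like the others. With the preparation letter as a replicate block there were 10. Over windows, the difference A minus B in MEL correlated with that in ES-EP at r = 0.0425, so the letters were not taken to pair preparations across cell types. The member count stayed 0 in 13 of 14 alternatives and was 1 with median-ratio size factors, at Ncf4 +20 (log2 difference 2.03, adjusted p = 0.00938, limma), whose adjusted p ranged from 0.0516 to 0.956 in the other alternatives that tested it. With a preparation left out the median region ratio is that of the other preparation, 0.869 or 1.17 in MEL and 1.09 or 1.17 in ES-EP, which says nothing about stability. With 1 read per position or without the shift, alternatives chosen after seeing the data, it was 1.02 and 1.01 in MEL and 1.17 and 1.14 in ES-EP, from 1.01 and 1.15.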
